A study of Mus musculus with 8 samples.

Results

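The genes described here carry out antigen presentation by major histocompatibility complex (MHC) class I molecules. They are the heavy chains H2-K1 and H2-D1, the light chain B2m, the peptide transporter subunits Tap1 and Tap2, tapasin (Tapbp), the immunoproteasome subunits Psmb8, Psmb9 and Psmb10, and the transcriptional regulator Nlrc5. They were taken by name for their roles in this pathway, but with earlier results of these data known. All 10 were among the 54532 genes of the deposited table, and 10 of 10 passed the filter on low values that left 16012 genes for testing.

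Poly(A) RNA came from inguinal white adipose tissue (iWAT), a subcutaneous fat depot, of HFD-fed males, HFD being a high-fat diet. Wild-type mice (WT, n = 4 libraries) were compared with KLF10AKO mice (n = 4 libraries), whose adipocytes were made deficient in KLF10, a zinc-finger transcription factor, to find genes of iWAT that differ when it is missing. The diet, the sex and the tissue were shared by both groups. The sources used here do not give the means of deletion or its driver, the strain, the age or the animals behind each library, so p-values reflect only how much these libraries vary, which may be technical. Values are the authors' FPKM, in which fragments are divided by gene length and by a library size. The deposited length can exceed that of a transcript, so comparisons of level between genes are approximate. For Tap1 it was 5476 bases against 3911 in the longest GENCODE M21 transcript, and for Tap2 3781 against 3442. An order of genes by level, or a share of 2 genes, therefore holds for FPKM only.

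Class I molecules sit on nearly all nucleated cells and show peptides from inside the cell to CD8 T cells and natural killer cells. Cytosolic proteins are cut by the proteasome, the peptides enter the endoplasmic reticulum through the TAP transporter, and tapasin holds empty heavy chains with their light chain at the transporter until a peptide binds. Interferon gamma switches on most of these genes, and lymphocytes carry high levels of them without it, whereas in fat they are expressed by adipocytes, vessels and resident leukocytes at differing levels.

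The promoters of the classical chains are shown here because they hold the elements through which NLRC5, interferon regulatory factors and NF-kappa B are known to act on class I genes. RefSeq promoter sequences (build GRCm38.p6) were found for 8 of the 10 genes, with 9 windows of 300 bases. The 200 bases before the start of H2-K1 and of B2m follow, read 5′ to 3′ on the gene's strand. Capitals mark matches to the searched motifs, which were the kappa B motif (GGGA, any base, T, any base, CCC), the interferon-stimulated response element (GAAA and GAAA with 2 bases between), its shorter form GAANNGAAA, TTCNNNGAA (gamma-activated site), TGACG (core of the X2 box) and CCAAT (core of the Y box), on both strands.
H2-K1, chr17:34000334-34000533, minus strand: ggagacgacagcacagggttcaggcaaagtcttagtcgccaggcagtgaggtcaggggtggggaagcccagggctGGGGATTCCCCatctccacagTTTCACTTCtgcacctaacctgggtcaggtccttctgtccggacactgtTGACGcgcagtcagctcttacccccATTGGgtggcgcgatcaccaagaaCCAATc
B2m, chr2:122147487-122147686, plus strand: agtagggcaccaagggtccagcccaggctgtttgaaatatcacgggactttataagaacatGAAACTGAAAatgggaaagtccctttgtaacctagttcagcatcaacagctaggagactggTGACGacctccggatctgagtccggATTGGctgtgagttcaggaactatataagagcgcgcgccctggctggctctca

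H2-K1 and H2-D1 share the kappa B match followed by the short response element, and the 30 bases that hold both are identical at 29 positions. These stretches are shown because the heavy chains moved in opposite directions on the authors' scale (below). Capitals mark 2 kappa B matches that overlap, shifted by 1 base and on opposite strands, and the short response element on the strand opposite to the gene.
H2-K1, chr17:34000429-34000458, minus strand: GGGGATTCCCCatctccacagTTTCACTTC
H2-D1, chr17:35262923-35262952, plus strand: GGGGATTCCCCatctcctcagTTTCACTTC
The kappa B motif was in 1.1% of 32851 mouse promoter windows of this length, and the short response element was in 7.52%. Among the 13596 windows of tested genes the shares were 1.42% and 6.33%. The longer response element, found in B2m as GAAACTGAAA 139 bases before the start, was in 3.44% of all windows and 3.3% of those of tested genes.

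H2-K1, H2-D1 and B2m also hold TGACG and the reverse complement of CCAAT at the same spacing, with 20 bases between them, the arrangement of X2 and Y elements in class I promoters. The search for this spacing was made after the sequences had been read. It is shown with the class Ib gene H2-M3, which holds it as well, and capitals mark TGACG and ATTGG.
H2-K1, chr17:34000359-34000388, minus strand: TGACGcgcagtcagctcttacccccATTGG
H2-D1, chr17:35262993-35263022, plus strand: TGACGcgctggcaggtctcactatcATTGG
B2m, chr2:122147609-122147638, plus strand: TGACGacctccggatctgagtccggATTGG
H2-M3, chr17:37270188-37270217, plus strand: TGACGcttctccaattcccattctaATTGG
This arrangement was in 19 of the 32851 promoter windows (0.0578%), which belonged to 16 genes. Among windows of tested genes it was in 17 of 13596 (0.125%). H2-K1 and H2-D1 were identical at 23 of the 30 bases and H2-K1 and B2m at 13. TGACG alone was in 20.8% of windows and CCAAT in 37.4%, and in 29.4% and 37.1% of those of tested genes. Psmb8 held the gamma-activated motif, as TTCCCAGAA 97 bases before its start. That motif was in 8.3% of windows and in 6.8% of those of tested genes. Tap1 and Psmb9 stand head to head, their windows share 275 bases, and the TGACG in that stretch lies 86 bases before the start of Tap1. These matches describe letters in a window and say nothing of what binds there.

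Of the 10 genes, 8 were higher in KLF10AKO and 2 were lower (limma, adjusted p below 0.05) on the authors' scale. Those 2 were called higher when libraries were scaled to adipocyte markers, as were 93.6% of all genes tested. On the authors' scale 39.4% of all genes tested were called higher and 34.9% lower, 74.3% in all. The groups did not overlap for any of the 10, which also held for 69.2% of all genes tested, 36.2% with KLF10AKO higher and 33.0% with KLF10AKO lower. The median log2 change was 0.99 over the 10 genes and 0.05 over all genes. The largest rises were in Tap1, Nlrc5, Psmb9 and Psmb8, and the classical chains and B2m changed least together with Tapbp. Exact two-sided permutation of the 8 values gave p = 0.0286 for each gene, the smallest that 4 libraries against 4 allow. In a bulk sample, fewer cells of a type and less RNA per cell cannot be told apart.

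**Figure D1:**
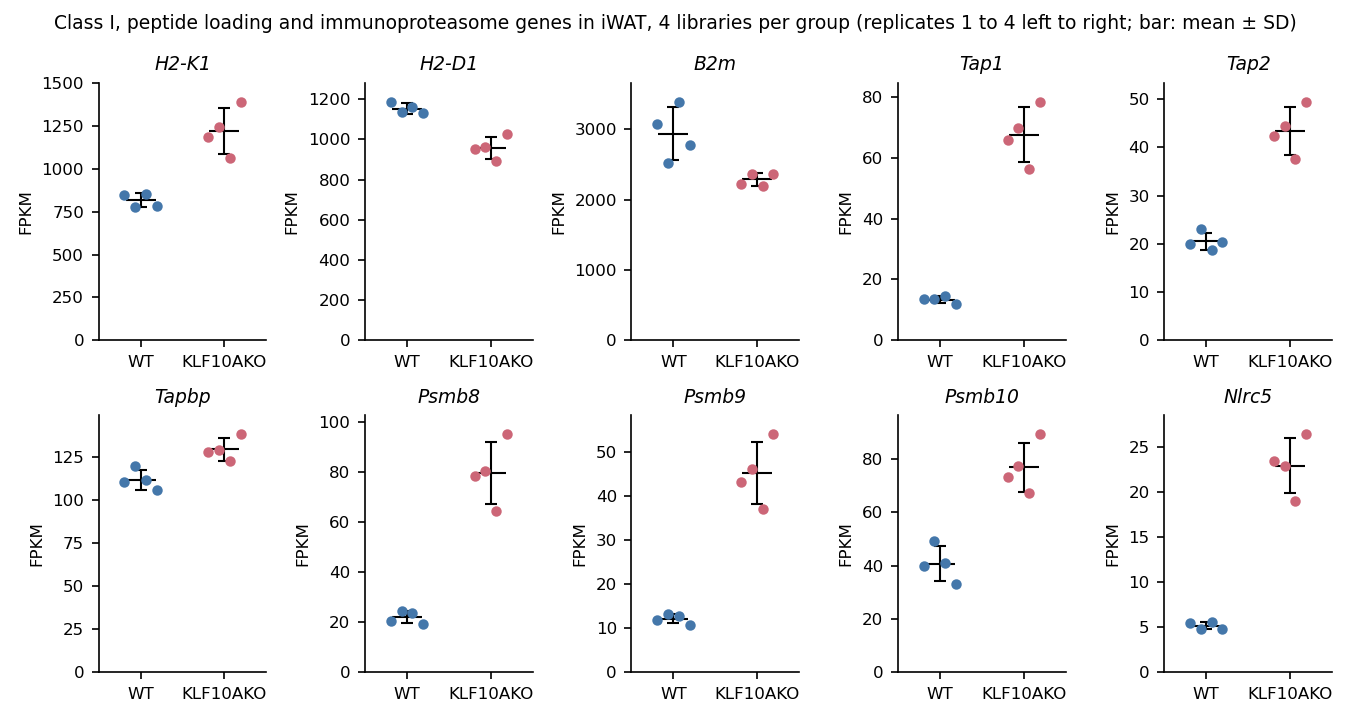
FPKM (linear y axis from 0, scaled per gene) of each of the 10 genes in the 4 WT and the 4 KLF10AKO libraries, with points for replicates 1 to 4 from left to right and bars for the mean ± SD. The groups do not overlap for any gene, with KLF10AKO higher for 8 and lower for H2-D1 and B2m on the authors' scale. Those 2 are called higher when libraries are scaled to adipocyte markers, as are 93.6% of all genes tested.

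Whole-series facts bear on every value that follows. Markers of lymphocytes rose in all KLF10AKO libraries. The 8 pan-leukocyte genes (Ptprc, Coro1a and others) summed to 89.1 to 101.1 FPKM in WT and 1111 to 1608 in KLF10AKO, and 8 of 8 were called higher. For B cells 12 of 12 were higher (132 to 262 against 2222 to 3154 FPKM in sum), for T and NK cells 16 of 16 (9.63 to 12.6 against 415 to 607), and for lymph node stroma and high endothelial venules 7 of 7 (1.12 to 1.97 against 195 to 280, with Chst4 at 0 in every WT library). The B cell and lymph node lists share Fcer2a and Cr2, so these lists are not separate. Fcer2a alone had 78.7 to 110.6 FPKM in KLF10AKO, and Cxcl13, which is only in the lymph node list, had 66.3 to 100.2. All 14 adipocyte markers, led by Fabp4, Cfd and Cidec, which define the labelled tissue, were detected in every library. They fell from a sum of 15925 to 17916 FPKM in WT to 5324 to 6685 in KLF10AKO. Of 10 endothelial markers 9 fell, and of 8 progenitor and fibroblast markers 7 were called lower and 1 higher. Of 12 macrophage markers 2 were called higher and 7 lower, and of 8 dendritic cell markers 7 higher and 1 lower. The 10 skeletal muscle genes summed to 3515 to 8185 FPKM in KLF10AKO replicates 1 to 3, to 34.1 in replicate 4 and to 162 to 215 in WT, where Acta1 alone made up 160.5 to 213. In replicate 4 Acta1 was at 20.9 FPKM, and 3 of the 10 genes lay below every WT library. There 4 lay above every WT library, among them Tnnt3 (3.11 against 0.295 to 0.634 FPKM) and Tnni2 (1.85 against 0.178 to 0.402). Klf10 itself, the targeted gene, had 16.7, 18.2, 16.7 and 21.1 FPKM in WT and 9.39, 9.68, 9.75 and 9.59 in KLF10AKO, a log2 change of -0.88 (SE 0.0781, limma adjusted p = 8.96e-06). Scaled to the adipocyte markers that change was 0.75. The part of these shifts in the results on class I genes was not tested.

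The heavy chains form the peptide groove and B2m is the light chain that every class I molecule needs to fold and leave the endoplasmic reticulum. These 3 were the most abundant of the genes, and on the authors' scale the heavy chains changed in opposite directions, though both rose with the adipocyte scaling. H2-K1 (ENSMUSG00000061232, mm10 chr17:33996017-34000333, minus strand) had 848, 781, 855 and 786 FPKM in the 4 WT libraries (replicates 1 to 4, as in the sentences that follow) and 1187, 1247, 1065 and 1391 in KLF10AKO. Every KLF10AKO library lay above every WT library, with replicate 4 highest. The means were 817 ± 39.6 and 1223 ± 135 (SD, n = 4 each), and the log2 change was 0.58 (SE 0.108, 95% interval 0.33 to 0.82, limma adjusted p = 0.00108).

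H2-D1 (ENSMUSG00000073411, chr17:35262730-35267499, plus strand), the second classical heavy chain, had 1187, 1137, 1162 and 1130.3 FPKM in WT and 952, 962, 891 and 1028 in KLF10AKO. Every KLF10AKO library lay below every WT library. The means were 1154 ± 25.6 and 958 ± 55.8 (SD, n = 4 each), a log2 change of -0.27 (SE 0.0895, 95% interval -0.47 to -0.07, limma adjusted p = 0.022).
B2m (ENSMUSG00000060802, chr2:122147686-122153083, plus strand), on another chromosome, had 3072, 2515, 3387 and 2776 FPKM in WT and 2226, 2368, 2197 and 2357 in KLF10AKO. The WT libraries spread more widely than the KLF10AKO libraries, and the highest KLF10AKO library lay below the lowest WT library. The means were 2938 ± 376 and 2287 ± 88.0 (SD, n = 4 each), a log2 change of -0.35 (SE 0.135, 95% interval -0.66 to -0.05, limma adjusted p = 0.0397).

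The 2 lower calls did not hold in several other settings. With TPM the change was -0.06 for H2-D1 (limma adjusted p = 0.673) and -0.14 for B2m (limma adjusted p = 0.365), and with quantile normalization -0.17 and 0.42, a rise for B2m (limma adjusted p = 0.0159). Scaled to adipocyte markers both rose, by 1.36 and 1.28, and the median of all genes moved by 1.63 as well. Relative to the median of all genes in the same setting, H2-D1 stood at -0.32 on the authors' scale, -0.31 with TPM, -0.01 with quantile normalization and -0.32 with the adipocyte scaling, and B2m at -0.40, -0.39, 0.58 and -0.40. The lower call of H2-D1 was lost without WT replicate 1 or 3 or KLF10AKO replicate 1 or 2, with limma adjusted p of 0.0642, 0.0508, 0.0682 and 0.0641. That of B2m was lost without any library but WT replicate 2, with limma adjusted p of 0.0536 to 0.11. H2-K1 was higher in each of the 18 alternative settings, by 0.51 to 2.20.

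**Figure D2:**
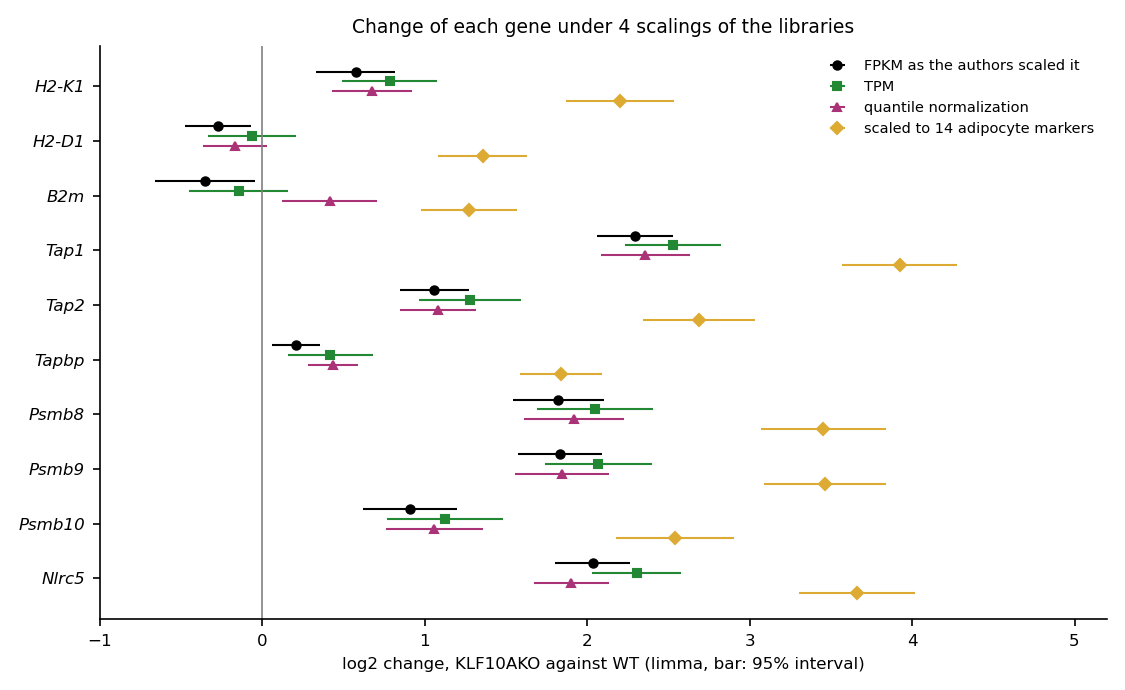
The log2 change of each gene (x axis; bars are 95% intervals of the limma fit) under the authors' FPKM, TPM, quantile normalization and scaling to 14 adipocyte markers. Of the 10 genes, 8 lie above 0 in all 4 scalings, while H2-D1 runs from -0.27 to 1.36 and B2m from -0.35 to 1.28.

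The balance of the 2 heavy chains inside a library does not depend on scaling between libraries. H2-K1 made up 41.7%, 40.7%, 42.4% and 41.0% of the summed FPKM of both chains in WT and 55.5%, 56.5%, 54.4% and 57.5% in KLF10AKO. The chain with the higher FPKM changed from H2-D1 to H2-K1, an order that depends on the gene lengths used. On the authors' scale the sum went from 1971 ± 63.1 to 2181 ± 191 (SD, n = 4 each), while with the adipocyte scaling both chains rose, by 2.20 and 1.36. The log2 ratio of H2-K1 to H2-D1 rose by 0.85 (exact permutation p = 0.0286, adjusted p = 0.0295 over the 33 ratios computed). H2-K1 also rose against B2m, by 0.93 (exact permutation, adjusted p = 0.0295), whereas the ratio of H2-D1 to B2m was -1.34 ± 0.166 in WT against -1.26 ± 0.0525 in KLF10AKO (SD, n = 4 each). That difference of 0.08 did not pass (exact permutation, adjusted p = 0.457), and the groups overlapped. The heavy chains are uncertain in another respect, since reads can be shared with related genes: 8.11% of 50-base windows of the longest H2-K1 transcript and 14.3% of those of H2-D1 also occur in other genes. Those leading for H2-K1 were H2-D1, H2-Q1, H2-T23 and H2-Q4, and those for H2-D1 were H2-Q1, H2-Q7, H2-Q6 and H2-K1, so the ratio of the chains is uncertain to the extent that such reads were split between them. For 100-base windows the shares were 0% and 4.64%.

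TAP moves peptides from the cytosol into the endoplasmic reticulum, and its subunits rose unequally. Tap1 (ENSMUSG00000037321, chr17:34187553-34197225, plus strand) had 13.4, 13.6, 14.4 and 11.8 FPKM in WT and 66.0, 69.8, 56.4 and 78.4 in KLF10AKO. The lowest KLF10AKO library was far above every WT library. The means were 13.3 ± 1.09 and 67.6 ± 9.13 (SD, n = 4 each), 5.08-fold, with a log2 change of 2.30 (SE 0.104, limma adjusted p = 1.69e-07), the largest of the 10 genes.
Its partner Tap2 (ENSMUSG00000024339, chr17:34203527-34216321, plus strand) had 19.96, 22.98, 18.7 and 20.4 FPKM in WT and 42.4, 44.4, 37.5 and 49.4 in KLF10AKO. The groups were again apart, with a smaller rise, from 20.5 ± 1.79 to 43.4 ± 4.93 (SD, n = 4 each), or 1.06 on the log2 scale (SE 0.0942, limma adjusted p = 9.04e-06). Tap2 had the higher FPKM in WT, and Tap1 in KLF10AKO, an order that depends on the gene lengths used. The log2 ratio of Tap1 to Tap2 was -0.60 ± 0.184 in WT against 0.63 ± 0.0346 in KLF10AKO (SD, n = 4 each), a rise of 1.23 (exact permutation, adjusted p = 0.0295).

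Tapasin, encoded by Tapbp (ENSMUSG00000024308, chr17:33915899-33929288, plus strand), bridges TAP and the empty heavy chain and edits the peptide cargo. It had 110.3, 119.7, 111 and 106 FPKM in WT and 128, 129, 123 and 138 in KLF10AKO. The groups did not overlap, but the shift was small, from 112 ± 5.86 to 129 ± 6.47 (SD, n = 4 each), a log2 change of 0.21 (SE 0.0645, limma adjusted p = 0.0151). Against B2m in the same library Tapbp rose by 0.56 (exact permutation, adjusted p = 0.0295), which did not pass without any 1 of the KLF10AKO libraries, where it was 0.55 to 0.58 with adjusted p = 0.0608. Exons of Tapbp overlap those of Zbtb22 on the same strand and Gm19412 on the other strand over 29% of their bases, and the sources used here give no strand setting for the counting. For Tap2 the overlap with antisense genes was 18.5%, and for Psmb8 the overlap with antisense Gm20496 was 14.7%. Overlaps were taken from the GENCODE M21 annotation. Its exons cover 3628 bases for Tapbp, 3381 for Psmb8 and 2938 for H2-K1, against deposited lengths of 3296, 2736 and 2608 bases. For H2-D1 both were 2579 bases.

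The immunoproteasome subunits replace the catalytic subunits of the constitutive proteasome and change which peptides are cut. All 3 rose. Psmb8 (ENSMUSG00000024338, chr17:34197721-34201454, plus strand), which takes the place of Psmb5, had 20.6, 24.3, 23.8 and 19.2 FPKM in WT and 78.5, 80.2, 64.6 and 94.98 in KLF10AKO. No libraries overlapped, and KLF10AKO replicate 4 was highest and replicate 3 lowest of its group. The log2 change was 1.82 (SE 0.123, limma adjusted p = 1.65e-06), from a mean of 22.003 ± 2.47 to 79.6 ± 12.4 (SD, n = 4 each).
Psmb9 (ENSMUSG00000096727, chr17:34181988-34187764, minus strand), which takes the place of Psmb6, had 11.8, 13.2, 12.9 and 10.8 FPKM in WT and 43.2, 46.1, 37.0 and 53.9 in KLF10AKO. Its 4 KLF10AKO libraries stood in the same order as those of Psmb8. Its log2 change was 1.84 (SE 0.114, limma adjusted p = 1.02e-06), nearly that of Psmb8. Psmb9 and Tap1 share 212 exon bases on opposite strands, and Tap1 rose more than Psmb9 by 0.46 in log2 ratio (exact permutation, adjusted p = 0.0295).
Psmb10 (ENSMUSG00000031897, chr8:105935735-105938444, minus strand), which takes the place of Psmb7 and lies outside the MHC, had 39.7, 49.3, 40.9 and 33.1 FPKM in WT and 73.4, 77.4, 67.3 and 89.2 in KLF10AKO. Its rise, from 40.8 ± 6.63 to 76.8 ± 9.24 (SD, n = 4 each), was the smallest of the 3, with a log2 change of 0.91 (SE 0.127, limma adjusted p = 0.000166). In WT it had the highest FPKM of the 3 subunits, while in KLF10AKO the ranges of Psmb10 and Psmb8 overlapped.

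On the authors' scale the constitutive partners went the other way, and the makeup of the catalytic subunits shifted inside each library. Psmb5, Psmb6 and Psmb7 had log2 changes of -0.36, -0.21 and -0.62 (limma adjusted p = 0.0147, 0.0432 and 0.0015). The lower calls of Psmb5 and Psmb6 did not pass with TPM (-0.15 and 0.000499) or quantile normalization (-0.15 and -0.05), and all 3 rose with the adipocyte scaling (1.27, 1.42 and 1.01). That of Psmb6 was also lost without WT replicate 1, 2 or 3 or KLF10AKO replicate 1, 2 or 4, at -0.16 to -0.23 with limma adjusted p of 0.0588 to 0.102.
Psmb8 made up 17.6%, 17.6%, 18.6% and 17.0% of the summed FPKM of Psmb8 and Psmb5 in WT and 49.9%, 49.3%, 41.2% and 59.2% in KLF10AKO. Psmb9 rose from 16.6% ± 0.248 to 45.8% ± 5.47 of Psmb9 plus Psmb6, and Psmb10 from 63.1% ± 4.31 to 83.2% ± 3.88 of Psmb10 plus Psmb7 (SD, n = 4 each). The log2 ratios rose by 2.19, 2.04 and 1.53 for the 3 pairs (exact permutation, adjusted p = 0.0295 each). In WT the shares of Psmb8 and Psmb9 were tight, and in KLF10AKO they ran higher in replicate 4 and lower in replicate 3.

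**Figure D3:**
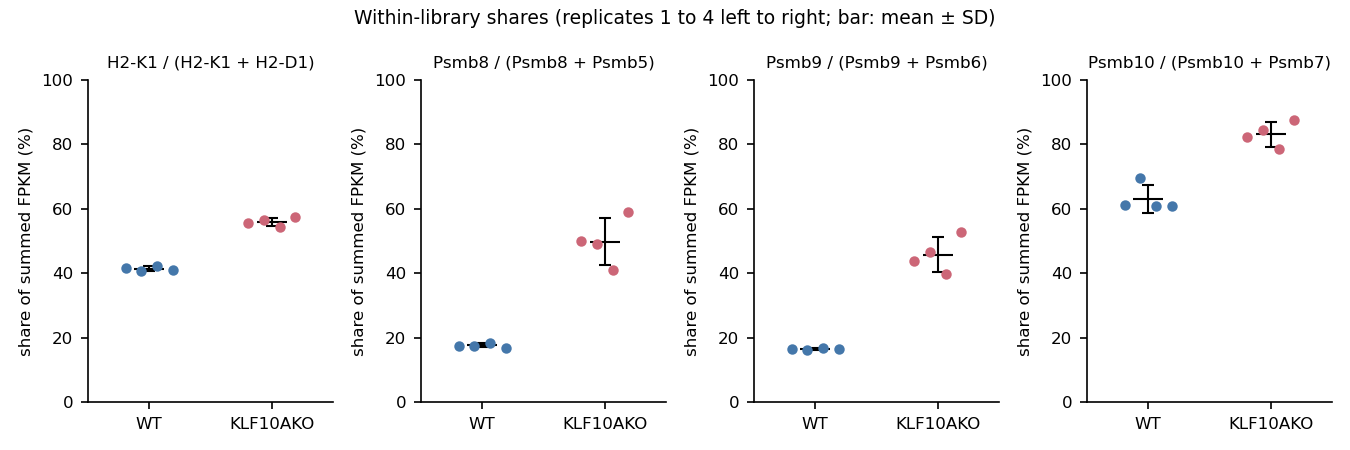
Share of the summed FPKM of 2 genes (percent, y axis) taken by H2-K1, Psmb8, Psmb9 and Psmb10 in each library, with replicates 1 to 4 from left to right and bars for the mean ± SD. Shares in KLF10AKO lie above all WT shares in the 4 panels, at 54.4% to 57.5% for H2-K1 against 40.7% to 42.4%.

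NLRC5 is the transactivator that class I promoters recruit, as CIITA is for class II. Nlrc5 (ENSMUSG00000074151, chr8:94434356-94527272, plus strand) had 5.48, 4.81, 5.63 and 4.82 FPKM in WT and 23.4, 22.8, 19.02 and 26.4 in KLF10AKO. The groups were far apart, at means of 5.18 ± 0.429 and 22.9 ± 3.01 (SD, n = 4 each). The log2 change was 2.03 (SE 0.101, limma adjusted p = 2.9e-07), the second largest of the 10 genes. Ciita rose more, by 3.37 (SE 0.102, limma adjusted p = 1.45e-08), and the log2 ratio of Nlrc5 to Ciita fell by 1.34, from 1.58 ± 0.0671 to 0.24 ± 0.0451 (SD, n = 4 each, exact permutation, adjusted p = 0.0295). Against B2m, Nlrc5 rose by 2.39 (exact permutation, adjusted p = 0.0295).

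By FPKM, WT libraries ran B2m, H2-D1, H2-K1, Tapbp, Psmb10, Psmb8, Tap2, Tap1, Psmb9 and Nlrc5. Ranges overlapped for the neighbours Psmb8 and Tap2 and for Tap1 and Psmb9. In KLF10AKO H2-K1 moved above H2-D1, Psmb8 above Psmb10 and Psmb9 above Tap2, with overlapping ranges for Psmb8 and Psmb10, for Psmb10 and Tap1, and for Psmb9 and Tap2. Among the tested genes Tap1 went from rank 3699 to rank 640 by level and Nlrc5 from rank 7257 to rank 2301, while B2m stayed among the most abundant, at rank 13 and then rank 7.

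Within KLF10AKO the genes shared an order of libraries. For 8 of the 10, replicate 4 was highest, followed by replicates 2, 1 and 3, which is the order of the mean log2 of the pan-leukocyte, B cell, T and NK cell, dendritic cell and lymph node stroma markers, and the reverse of the order of the adipocyte, endothelial, fibroblast, macrophage and skeletal muscle markers. Of all genes tested 15.98% stood in that order, and of those called higher 33.2% did. Nlrc5 and B2m were the exceptions, both with replicate 3 lowest. The lymph node stroma and B cell lists share Fcer2a and Cr2. The part of the cell markers in this order was not tested.

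The other genes of the pathway were read from 9 lists holding 124 genes, of which 120 were tested, 62 were called higher and 23 lower on the authors' scale, against 39.4% and 34.9% of all genes tested. With the adipocyte scaling 119 were higher and 0 lower, near the background of 93.6% and 0.706% of all genes, so every lower call given below for these lists holds only without that scaling. The class Ib and related chains, many of them ligands of specialised T cell and natural killer receptors, moved most among the class I lists. Of 16 genes 14 were tested, 8 were higher and 5 lower, with a median log2 change of 1.79. H2-Q6 had 49.1 ± 6.81 FPKM in WT (SD, n = 4) against 336 ± 46.9 in KLF10AKO (SD, n = 4), with a log2 change of 2.76 (limma adjusted p = 2.25e-07). H2-T24, H2-T10, H2-M3, H2-T23 (the chain that presents leader peptides of other class I chains) and H2-Q4 rose by 2.70, 2.46, 2.14, 1.90 and 1.67. The 5 lower genes, named after their values were seen, were Hfe (-1.81), Cd1d1 (-1.37), Fcgrt (-1.31), H2-Q10 (-1.12) and Mr1 (-0.61). Hfe takes part in iron sensing and Fcgrt binds immunoglobulin G, so neither presents peptides, and Cd1d1 and Mr1 present lipids and vitamin metabolites. H2-Q and H2-T genes resemble each other and the classical chains closely, and their values are uncertain for that reason.

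Loading and trimming factors beyond the 10 genes showed no common direction: of 14, 3 were higher, 5 lower and 6 not called, with a median of -0.09. The shares over all genes tested were 39.4% higher and 34.9% lower. Tapbpl, a tapasin relative that edits peptides, rose by 1.13 (limma adjusted p = 2.25e-05), and Uggt1, a glucosyltransferase of quality control, by 0.36. The cytosolic aminopeptidase Lap3 fell by 1.10 (limma adjusted p = 3.5e-06), Npepps fell by 0.42, Blmh fell by 0.43 and the chaperone Calr fell by 0.43. The lower calls of Calr and Npepps did not pass with TPM (-0.22 and -0.23), and Lap3, Calr and Npepps rose with the adipocyte scaling (0.53, 1.20 and 1.21).

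For the proteasome outside the catalytic immunosubunits, the activator changed and the core mostly did not pass. Of 9 activator and assembly genes 6 were higher and 1 lower. Psme1, a subunit of the interferon-induced activator cap, had 45.4 ± 5.57 FPKM in WT against 103 ± 14.5 in KLF10AKO (SD, n = 4 each), and its log2 change was 1.17 (limma adjusted p = 2.31e-05), and Psme2, its partner, rose by 0.65. Psme3, which forms a nuclear cap, rose by 0.26, and Psme4, another cap, fell by 0.63. Inside libraries Psme1 rose by 0.92 against Psme3 (exact permutation, adjusted p = 0.0295). Psme2 rose by 0.39 against Psme3 (exact permutation, adjusted p = 0.0295), but by 0.37 to 0.42 with adjusted p = 0.0884 without any 1 of the KLF10AKO libraries. The assembly factors Psmg4, Psmg2 and Psmg3 rose by 0.86, 0.68 and 0.51.
Of 14 constitutive 20S genes 1 was higher and 5 lower, with a median of -0.02. Of 18 genes of the 19S regulatory particle 0 were higher and 4 lower, with a median of -0.09. Over all genes tested 39.4% were higher and 34.9% lower, so the share of lower 20S calls is near the background. Psmb3 rose by 0.30, and Psma6 and Psma1 had log2 changes of -0.31 and -0.34. Psmd1, Psmc1, Psmd14 and Psmd8 had log2 changes of -0.42, -0.36, -0.31 and -0.30. With TPM none of those 6 lower calls passed, and with the adipocyte scaling all 6 were higher, by 1.20 to 1.32. The call of Psmd8 was also lost without WT replicate 1, 2 or 4 or KLF10AKO replicate 1, 2 or 4, at -0.22 to -0.32 with limma adjusted p of 0.0565 to 0.0817.

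Regulators and interferon genes rose in number. Of 17 regulators of class I genes 15 were higher and 1 lower, with a median of 0.82. Irf8, a factor of B cells and myeloid cells, had 3.28 ± 0.195 FPKM in WT against 37.4 ± 5.31 in KLF10AKO (SD, n = 4 each), and its log2 change was 3.32 (limma adjusted p = 1.4e-08). Rfx5, which binds the X box with NLRC5 and CIITA, rose by 1.88, Relb by 1.9985, Stat2 by 1.57 and Nfkb1 by 1.26.
Of 10 tested genes of interferon signalling 8 were higher and 2 lower, and Socs1 and Socs3, feedback inhibitors of the pathway, rose by 2.71 and 2.51. The interferon gamma receptor chains moved apart, with Ifngr1 at -0.84 (limma adjusted p = 2.73e-06, but 0.79 with the adipocyte scaling) and Ifngr2 at 0.78 (limma adjusted p = 1.16e-05). Ifng itself was under the filter, with values of 0 to 0.103 FPKM in WT and 0.298 to 0.611 in KLF10AKO, and was not tested.
Of 16 tested interferon-induced GTPases and chemokines 13 were higher and 0 lower, with a median of 1.14. Gbp8, a guanylate-binding protein, rose by 4.43, the chemokine Cxcl10 by 3.13, and the immunity-related GTPases Irgm1 and Igtp by 2.17 and 1.78. The 3 that were not called, named after their values were seen, were Iigp1 (0.31), Gbp2 (-0.14) and Cxcl9 (-0.29). All 8 class II genes were higher, with a median of 2.40, and Cd74, the invariant chain, went from 544 ± 79.2 to 3112 ± 398 FPKM (SD, n = 4 each). H2-Oa and H2-Ob, known from B cells, rose by 6.37 and 6.74. The markers of B cells and of T and NK cells rose in the same libraries (above), and their part in these lists was not tested.

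**Figure D4:**
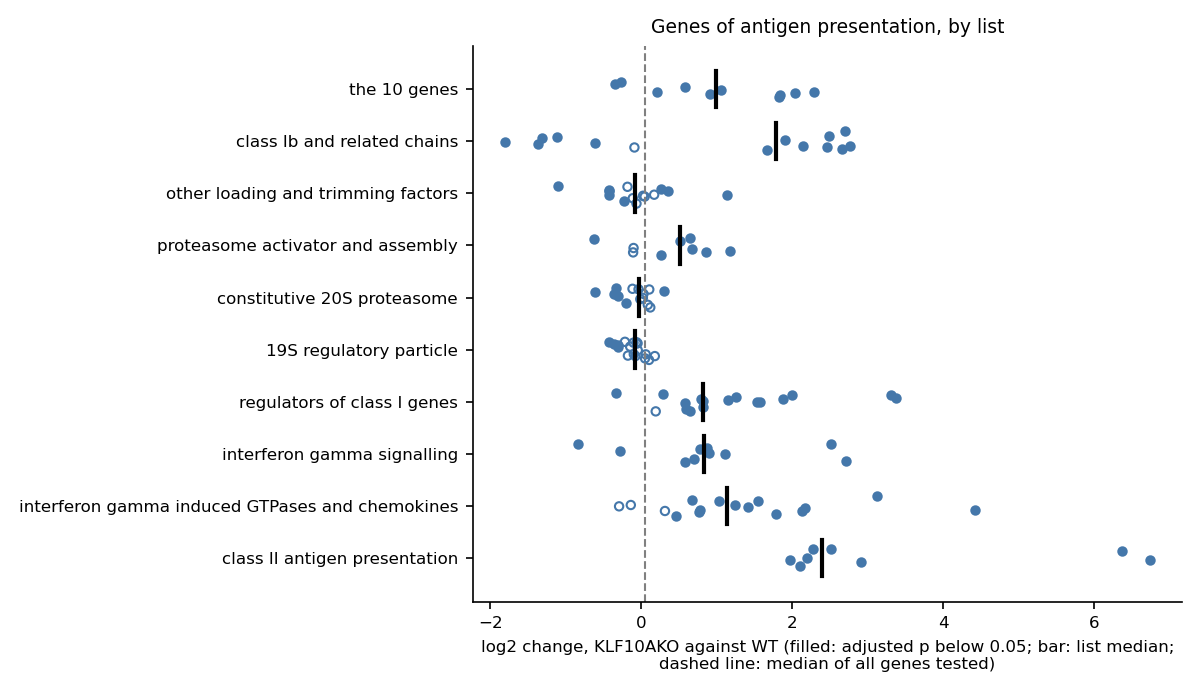
The log2 change of the 10 genes and of each gene in 9 further lists (x axis), with filled points for adjusted p below 0.05, a bar for the list's median and a dashed line for the median of all genes tested, at 0.05. The medians of the class Ib, regulator, interferon and class II lists lie at 0.82 to 2.40, and those of the constitutive 20S and 19S lists at -0.02 and -0.09, which turn to 1.605 and 1.54 with the adipocyte scaling.

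Each gene was also set against markers in the same library. Relative to the mean log2 of the 8 pan-leukocyte markers, all 10 were lower in KLF10AKO without overlap, by a log2 difference of -1.51 for Tap1 to -4.16 for B2m. Of all genes tested 96.5% were lower in the same way, so the count is near the background. Relative to the 14 adipocyte markers all 10 were higher, by 1.28 for B2m to 3.92 for Tap1, and so were 90.8% of all genes. Each of these 20 ratios had an exact permutation adjusted p of 0.0295. The order of the 10 genes by size of change is the same on both scales by construction. Tap1, Nlrc5, Psmb9 and Psmb8 fell least against the leukocyte markers, by 1.51 to 1.98. Among the 10 genes the SD of the KLF10AKO libraries on that scale ran from 0.0213 for Psmb9 and 0.0249 for Tap1 to 0.171 for B2m.

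**Figure D5:**
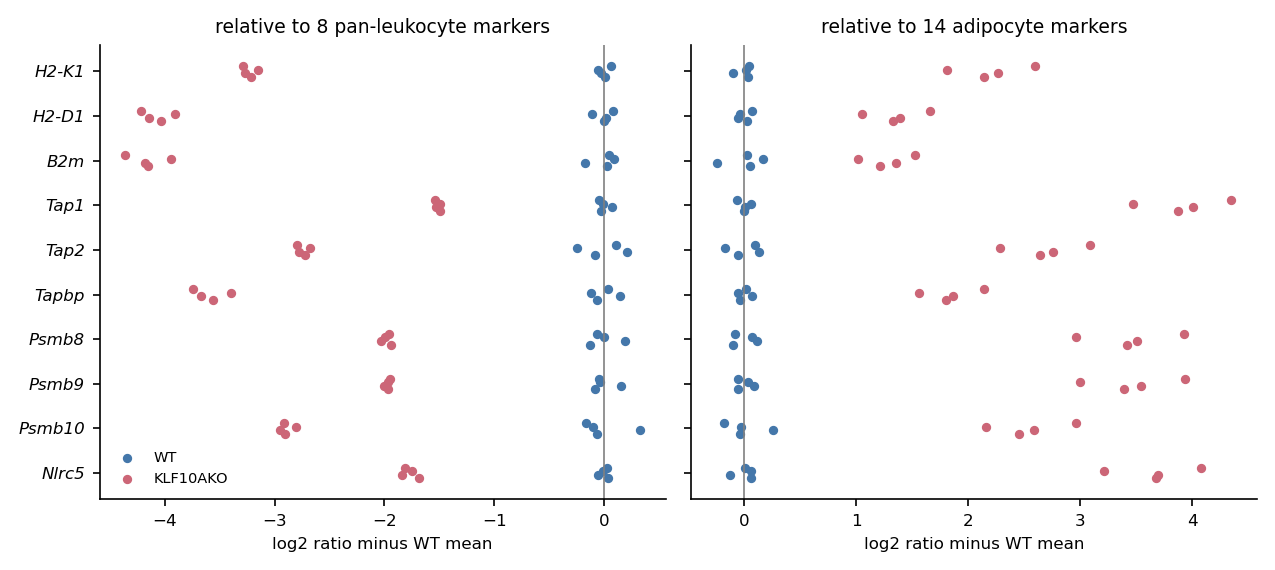
The log2 ratio of each gene to pan-leukocyte markers (left) and to adipocyte markers (right), less its WT mean (x axes), with a point for each library. All KLF10AKO points lie below WT on the left and above WT on the right, which also holds for 96.5% and 90.8% of all genes tested.

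KLF10AKO replicate 4, where muscle genes were far below their level in replicates 1 to 3, was also set alone against WT. There the log2 changes of the 8 higher genes ran from 0.31 for Tapbp to 2.52 for Tap1. Replicate 4 was the highest KLF10AKO library for all 8, so keeping it alone could hardly lose their rise. It also had the highest pan-leukocyte and the lowest adipocyte markers of its group. The part of muscle in the changes was not tested. The 2 genes called lower stood at -0.17 (H2-D1) and -0.31 (B2m) there.

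The genes nearest to the mean profile of the 10, by Euclidean distance of log2 values less the WT mean over the 8 libraries, were the ribosomal protein gene Rpl22 (0.117), AC149090.1 (0.127), the actin nucleation gene Actr2 (0.127), Trp53inp1 (0.131) and the pyruvate dehydrogenase kinase gene Pdk1 (0.132). All 10 lay farther from their own mean than these did. Tap2 was closest, at 0.268 with 102 other genes nearer, followed by Psmb10 at 0.363 with 315, while B2m was farthest, at 2.76 with 9484.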

How the data were processed

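Poly(A) RNA of iWAT from 4 WT and 4 KLF10AKO libraries was sequenced, per the labels' protocols. The authors deposited FPKM with gene lengths. The submitters' processing notes name mm10, edgeR 3.22.5, featureCounts 1.5.0-p3 and HISAT2 2.0.5, while the sources used here do not give their roles, the annotation release or the strand setting. Whole reads recovered from FPKM, within 0.01 of a read, came to 15537863 to 17499132 per library and to 582 to 64013 per gene described. PCR reads carry no molecular identifiers.

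KLF10AKO was compared with WT by limma 3.58.1 (R 4.3.3, eBayes with trend) on log2(FPKM + 0.5) for 16012 genes of mean FPKM at least 0.5. A log2 change is thus on the log2(FPKM + 0.5) scale and understates the change of low genes. The fold given for Tap1 is the ratio of its mean FPKM. P-values were two-sided and Benjamini-Hochberg adjusted over all genes tested, with a threshold of 0.05. The 33 within-library log2 ratios, with the same pseudocount, had exact two-sided permutation tests, adjusted over the 33. The fit was tested on simulated data in which few genes changed, unlike these data, where 74.3% of genes tested were called. The permutation test was tested on random values. Differences between replicates exceeded counting noise in every pair (mean squared z 4.5 to 79.9).

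The 10 genes and the lists were chosen with earlier results of these data known. Genes named are the 10, Klf10, both genes of each ratio, up to 6 genes of lowest p per list, up to 3 marker genes of highest level per list, and the 5 nearest genes. Any other was chosen after its values were seen. Ccl19 and Ccl21a, listed in 2 rows each, were left out. Motifs were sought in RefSeq promoters (GRCm38.p6). Shared transcript sequence and exon overlap came from GENCODE M21.

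Alternatives were no filter, a minimum of 2, pseudocounts of 1 and 0.1, TPM, quantile normalization, scaling to 14 adipocyte markers, a replicate block, each library left out, KLF10AKO replicate 4 alone and, chosen after seeing the data, voom on recovered reads.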

Additional observations from a re-analysis of the deposited data

Results flagged for a closer look

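Of 86 sets of 4 values examined, 1 had a library far from the others, and chance gives about 1 in 20. The log2 ratio of Psmb10 to Psmb7 was 1.18 in WT replicate 2, against 0.63 to 0.65 in the other WT libraries, a gap of 0.961 of the whole range. All 4 KLF10AKO values, 1.84 to 2.78, lay above it.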

How the results depend on the processing

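The count of higher genes among the 10 was 8 in every alternative with several KLF10AKO libraries but quantile normalization (9) and the adipocyte scaling (10). The count of lower genes, 2, became 0 with no filter, TPM, quantile normalization, the adipocyte scaling, the replicate block and KLF10AKO replicate 4 alone, and was 0 to 2 with a library left out. The scalings shifted the all-gene median log2 change by 0.201 (TPM), -0.205 (quantile normalization) and 1.63 (adipocyte markers). Of all calls, 53% were higher on the authors' scale, and 63.4%, 41.2% and 99.3% with those scalings. Among the 120 further genes, higher calls went from 62 to 119 with the adipocyte scaling, and lower calls from 23 to 9 with TPM and 0 with the adipocyte scaling.

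Directions turned for B2m with quantile normalization (0.42), for Psmb6 with TPM (0.000499, not called) and with the adipocyte scaling for H2-D1 (1.36), B2m (1.28), Psmb5 (1.27), Psmb6 (1.42), Psmb7 (1.01), Klf10 (0.75), Lap3 (0.53), Calr (1.20), Npepps (1.21), Psma6 (1.32), Psma1 (1.29), Psmd1 (1.20), Psmc1 (1.27), Psmd14 (1.32), Psmd8 (1.32) and Ifngr1 (0.79). The cause was not tested. Among 51 genes followed, calls lost without a library were those of H2-D1, B2m, Psmb6 and Psmd8. Voom on recovered reads changed no call among the 10. The planned count models, edgeR and DESeq2, were not run, because the deposited values are FPKM.

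Same-numbered WT and KLF10AKO libraries shared only a number: deviations from the group means correlated at 0.003 to 0.031, and 3 of 4 WT libraries correlated best with their own number, a hint from the data and not from the design. With the replicate block, 8 genes were higher and 0 lower, and H2-D1 and B2m had limma adjusted p of 0.0648 and 0.105. Of the 33 ratios 32 passed, 30 to 32 with a library left out, and 0 with the pairing (smallest possible p 0.125) or with replicate 4 alone (0.2). The 10 genes had at least 582 reads in every library.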
